A study of Saccharomyces eubayanus and Saccharomyces cerevisiae x Saccharomyces eubayanus with 20 samples.

Results

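The genes described here encode enzymes of the arginine, histidine, branched-chain (isoleucine, valine and leucine), lysine, tryptophan, threonine and serine biosynthesis pathways, with a few of their regulators. They were chosen by name alone, as all genes whose standard name consists of ARG, CPA, HIS, ILV, LEU, LYS, TRP, HOM, SER or THR followed by a number. This gave 51 of the 5513 genes listed for the S. eubayanus strains. In the hybrid it gave 102 of 11291 genes, 51 on each subgenome. By pathway these were 10 arginine, 7 histidine, 11 branched-chain, 9 lysine, 5 tryptophan, 5 threonine and 4 serine genes. A prefix Se or Sc marks the S. eubayanus or S. cerevisiae copy, for example SeLYS1 and ScLYS1.

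The study asked which genes allow S. eubayanus, a parent of lager yeast, to grow on maltose and maltotriose, and whether an S. cerevisiae regulator can restore this growth. Transcript levels were measured in 20 cultures, 2 per group, in synthetic medium with ammonium sulfate as the nitrogen source and glucose, maltose or maltotriose as the carbon source. CDFM21L.1 is a wild-type Himalayan S. eubayanus strain (labelled Mal- Mtt-) and was grown on glucose only. IMX1765 is a MATa/MATα strain derived from it in which ScMAL13 replaced both SeSGA1 alleles, and IMX1939 carries in addition a deletion of both SeMALT1 alleles. In both, ScMAL13 stood under a constitutive promoter, that of ScPGK1. HTS020 is a hybrid of S. cerevisiae CBC-1 and S. eubayanus CDFM21L.1 (labelled MATa/MATα, Mal+ Mtt+) that was taken from a single colony. All flasks were sampled in the mid-exponential phase. The labels give the same optical density for every culture, whereas the methods of the study give a higher one for maltotriose than for glucose and maltose, and its part in the differences below was not tested.

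Of the 20 libraries, 19 held between 16874233 and 27175322 reads on genes, and the maltotriose culture 1 of IMX1765 held 318922. In that library a member gene had between 7 (ARG82) and 1084 (ILV5) reads, with a median of 99. ScMAL13 was at 0.104 and 0.214 FPKM (fragments per kilobase of gene, scaled to the size of the library) in CDFM21L.1 and between 331 and 915 FPKM in IMX1765 and IMX1939, and in HTS020 between 48.0% and 50.6% of the reads lay on S. eubayanus genes. For 3 HTS020 libraries, a maltose culture and both maltotriose cultures, the sample description named the medium of the other of these sugars than the title and the carbon source field did, and the latter were used here. The libraries grouped by these titles correlated at 0.977 (maltose) and 0.989 (maltotriose) over all genes on the log2 scale, and libraries of different titles among them at 0.748 to 0.797.

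Yeast growing on ammonium makes all its amino acids from central carbon metabolites. Most of the pathways are controlled together by the transcription activator Gcn4, which binds sites with the core TGACTC and whose translation increases when uncharged tRNA accumulates, a response called general amino acid control. Single pathways have regulators of their own, such as Leu3 for leucine (whose sites are a pair of CCGG blocks with any 2 bases between them), Lys14 for lysine and a complex with Arg81 for arginine. End products also inhibit the first enzymes of their pathways.

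The promoters of the S. cerevisiae genes were read from the RefSeq reference genome (assembly R64, strain S288C), which may differ from that of CBC-1. TGACTC, on either strand, lay within 400 bases before the start codon of 37 of the 51 members (72.5%) and of 621 of all 6007 genes (10.3%). The Leu3 form was found for 3 members (5.88%) and for 11 of all genes (0.183%). The stretches of 30 bases below are shown because they come from the members with the motif that fell most on maltotriose in the S. cerevisiae copy of the hybrid (LYS1, HIS1, LYS12, ARG4 and SER2), from both members that carry the motif and rose (CPA1, LEU4), and from the 3 members with the Leu3 form. They read 5′ to 3′ on the strand of the gene, with the motif in capitals, and GAGTCA is TGACTC on the opposite strand. A match is a description of the letters, and no binding was measured.
LYS1, chr9:420968-420997, minus strand: tactaagtcgatGAGTCAaaaaagactctt
HIS1, chr5:266050-266079, minus strand: ttgataacagcgTGACTCttcccggaaatt
ARG4, chr8:141564-141593, minus strand: ttagtagatgaaTGACTCactttttggata
SER2, chr7:911716-911745, plus strand: ccgagaaagaaaGAGTCAatactaataatc
LYS12, chr9:187773-187802, minus strand: atattcttaagaTGACTCtaattagaggaa
CPA1, chr15:882592-882621, plus strand: cttttcttttctTGACTCgtcgtttctttt
LEU4, chr14:426838-426867, minus strand: cttacgtgtaagTGACTCagttctttcaaa
LEU2, chr3:91116-91145, plus strand: ggtgagagcgCCGGAACCGGcttttcatat
LEU1, chr7:478850-478879, minus strand: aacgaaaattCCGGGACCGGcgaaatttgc
ILV5, chr12:839611-839640, minus strand: gcggtctcctCCGGTACCGGttctgccacc

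In HTS020, the member genes together took 3.16% and 3.04% of all reads with glucose, 2.48% and 2.09% with maltose and 1.17% and 1.19% with maltotriose. The cultures of the 3 sugars did not overlap. In IMX1939 the share was 2.80% and 2.57% with glucose, 2.37% and 1.93% with maltose and 2.08% and 1.47% with maltotriose. In IMX1765 it was 2.29% and 2.19% with glucose, 1.94% and 1.95% with maltose and 2.23% and 1.59% with maltotriose, so that 1 maltotriose culture lay within the range of glucose and the other below all. The wild type on glucose had 2.25% and 2.40%. In all 4 strains these are shares of the RNA pool, and fewer transcripts of these genes per cell cannot be told apart from more of other transcripts. The transcripts of cytosolic ribosomal proteins moved in the same direction. Their share fell from 19.7% and 20.0% on glucose to 10.7% and 10.4% on maltotriose in HTS020, and from 19.1% and 17.2% to 8.96% and 5.90% in IMX1939, and a link between both groups of genes was not tested.

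**Figure D1:**
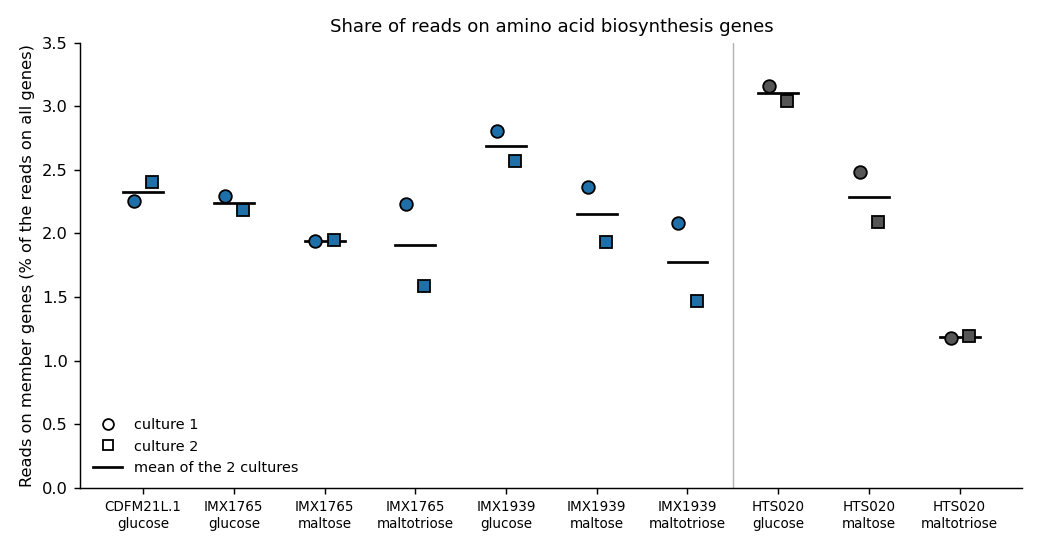
Share of all reads on genes that lay on the 51 (S. eubayanus strains) or 102 (HTS020) amino acid biosynthesis genes, in percent, for each culture (circles culture 1, squares culture 2) with the mean of the group as a line. HTS020 on maltotriose, at 1.17% and 1.19%, has the lowest share of the 10 groups, and the maltotriose cultures of IMX1765 and IMX1939 differ from each other.

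The most extensive change was found in HTS020 on maltotriose against glucose. Of the 51 S. eubayanus copies, 41 fell and 5 rose, and of the 51 S. cerevisiae copies, 42 fell and 6 rose (limma on log2(FPKM + 1), with p adjusted over the whole fit after Benjamini and Hochberg and a threshold of 0.05). This comparison changed a large part of the genome: 72.4% of the 5400 S. eubayanus genes tested and 69.7% of the 5589 S. cerevisiae genes passed the same threshold, that is, 31.3% as higher and 41.2% as lower and 31.4% as higher and 38.3% as lower of each subgenome. The median log2 difference of the members was -1.59 for the S. eubayanus and -1.46 for the S. cerevisiae copies, beside -0.16 and -0.12 over all genes. Of the copies that fell, 33 and 35 fell at least 2-fold in mean FPKM, 17 and 16 at least 4-fold, and 6 and 4 at least 8-fold. For 41 genes both copies fell and for 5 both rose by this test, and no gene had copies that passed in opposite directions. The shares of all genes at these folds, and of all pairs whose copies moved together, were not counted. With 1 culture left out at a time, 88 to 98 of the 102 copies passed, compared with 94 in all. The same fit gave 39 lower and 4 higher S. eubayanus copies on maltotriose against maltose, and 38 lower and 5 higher S. cerevisiae copies (of all genes 66.4% and 63.2% passed, 27.8% and 28.4% as higher and 38.6% and 34.9% as lower). Since both comparisons use the same maltotriose cultures, they are not independent.

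**Figure D2:**
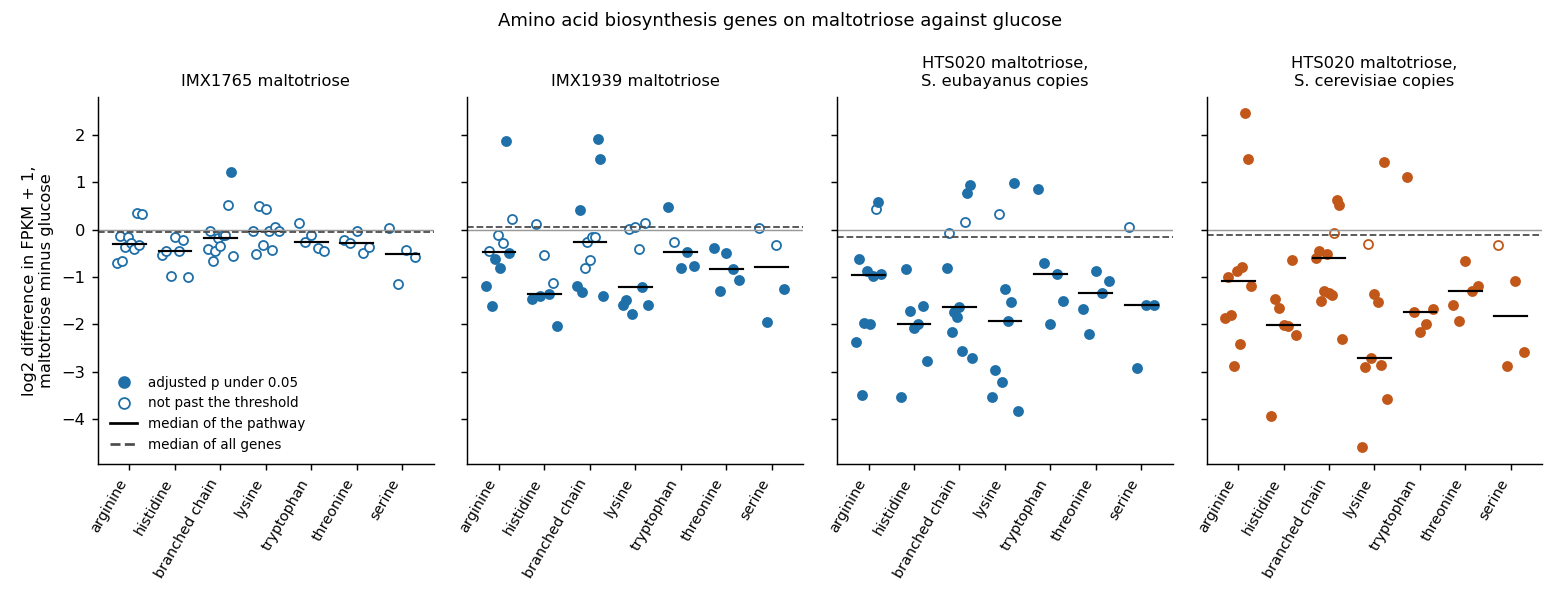
Difference between maltotriose and glucose on the log2(FPKM + 1) scale for each member gene, by pathway, in IMX1765, IMX1939 and both subgenomes of HTS020. Filled points passed the threshold, solid lines are pathway medians and the dashed line is the median of all genes; the histidine and lysine genes of HTS020 have medians between -1.93 and -2.71, and most points of IMX1765 are open.

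The lysine pathway held the largest falls in each subgenome. In HTS020 on maltotriose 7 of its 9 genes fell and LYS5 rose on each subgenome, with medians of -1.93 (S. eubayanus) and -2.71 (S. cerevisiae). LYS1 encodes the saccharopine dehydrogenase of the last step. ScLYS1 (chromosome 9, 409511 to 410632 in the CBC-1 assembly) measured 611 and 528 FPKM with glucose, 302 and 226 with maltose and 22.3 and 22.7 with maltotriose, and was 25.3-fold lower (log2 difference -4.60 ± 0.16, adjusted p = 2.0e-06) on maltotriose than on glucose and 11.7-fold lower (log2 difference -3.48 ± 0.16, adjusted p = 8.0e-06) than on maltose. SeLYS1 (chromosome 9, 397124 to 398245 in the CDFM21L.1 assembly) measured 286 and 242 FPKM with glucose, 162 and 123 with maltose and 19.6 and 24.2 with maltotriose, and was 12.04-fold lower (log2 difference -3.53 ± 0.18, adjusted p = 8.0e-06) on maltotriose than on glucose and 6.51-fold lower (log2 difference -2.64 ± 0.18, adjusted p = 3.5e-05) than on maltose. The 3 sugars formed a descending series in both copies without overlap, and the copies, which differed on glucose, met at about the same level on maltotriose.

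LYS9, the saccharopine dehydrogenase of the preceding step, followed the same course. ScLYS9 was at 311 and 277 FPKM with glucose, 172 and 133 with maltose and 23.5 and 23.9 with maltotriose, 12.4-fold lower (log2 difference -3.58 ± 0.15, adjusted p = 3.9e-06) on maltotriose than on glucose and 6.44-fold lower (log2 difference -2.62 ± 0.15, adjusted p = 1.9e-05) than on maltose. SeLYS9 was at 447 and 396 FPKM with glucose, 314 and 222 with maltose and 32.9 and 25.1 with maltotriose, 14.5-fold lower (log2 difference -3.83 ± 0.20, adjusted p = 9.0e-06) than on glucose and 9.25-fold lower (log2 difference -3.16 ± 0.20, adjusted p = 2.7e-05) than on maltose. LYS12 encodes homoisocitrate dehydrogenase. ScLYS12 was at 486 and 490.2 FPKM with glucose, 303 and 243 with maltose and 55.6 and 75.2 with maltotriose, 7.47-fold lower (log2 difference -2.90 ± 0.17, adjusted p = 1.5e-05) on maltotriose than on glucose, and SeLYS12 at 401 and 403 FPKM with glucose, 264 and 220.2 with maltose and 44.6 and 57.3 with maltotriose, 4.75-fold lower (log2 difference -2.23 ± 0.16, adjusted p = 3.8e-05) on maltotriose than on maltose. LYS2, which encodes the aminoadipate reductase, fell as well. SeLYS2 was at 98.1 and 87.8 FPKM with glucose, 58.4 and 36.4 with maltose and 8.40 and 9.74 with maltotriose, and was 10.3-fold lower (log2 difference -3.22 ± 0.23, adjusted p = 2.9e-05) on maltotriose than on glucose. LYS4 encodes homoaconitase. ScLYS4 was at 154 and 139 FPKM with glucose, 116 and 70.6 with maltose and 19.002 and 19.7 with maltotriose, and was 4.83-fold lower (log2 difference -2.17 ± 0.23, adjusted p = 1.9e-04) on maltotriose than on maltose. In each of these the maltotriose cultures lay below all cultures on glucose and maltose.

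The first enzyme of the pathway, homocitrate synthase, is encoded by LYS20 and LYS21. Averaged over the 3 sugars LYS20 was the most abundant lysine transcript of the S. cerevisiae and LYS21 that of the S. eubayanus subgenome, while ScLYS1 was higher than ScLYS20 on glucose. SeLYS21 was at 674 and 656 FPKM with glucose, 573 and 514 with maltose and 175 and 171 with maltotriose and 3.84-fold lower (log2 difference -1.93 ± 0.10, adjusted p = 9.1e-06) on maltotriose than on glucose. ScLYS20 was at 501 and 455 FPKM with glucose, 367 and 295 with maltose and 186 and 185 with maltotriose and 2.58-fold lower (log2 difference -1.36 ± 0.13, adjusted p = 1.2e-04). The genes are similar in sequence, so reads that fit both could not be assigned and their values are uncertain. LYS5 encodes the enzyme that attaches the phosphopantetheine group of Lys2. It rose against the rest of the pathway. ScLYS5 was at 16.5 and 14.7 FPKM with glucose, 18.9 and 16.8 with maltose and 44.7 and 43.2 with maltotriose (log2 difference 1.44 ± 0.14, adjusted p = 1.1e-04 against glucose), and SeLYS5 at 27.8 and 21.1 FPKM with glucose, 23.7 and 20.9 with maltose and 49.5 and 48.2 with maltotriose (log2 difference 0.98 ± 0.17, adjusted p = 0.001). The activator gene LYS14 did not pass the threshold. ScLYS14 was at 33.4 and 34.3 FPKM with glucose, 32.4 and 34.3 with maltose and 27.5 and 26.99 with maltotriose (log2 difference -0.30 ± 0.12, adjusted p = 0.059) and SeLYS14 at 11.4 and 11.2 FPKM with glucose, 12.6 and 12.8 with maltose and 13.6 and 15.4 with maltotriose (log2 difference 0.34 ± 0.14, adjusted p = 0.064).

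**Figure D3:**
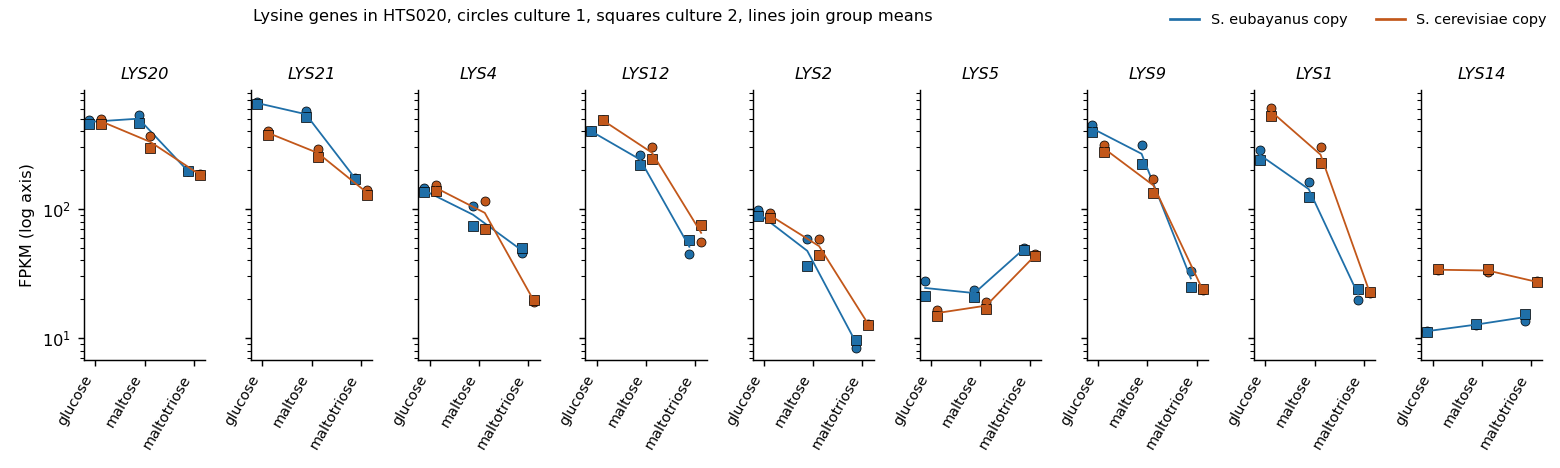
FPKM of the 9 lysine genes in HTS020 by sugar on a log axis, for each culture (circles culture 1, squares culture 2) and subgenome, with lines joining group means. LYS1 goes from 611 and 528 to 22.3 and 22.7 FPKM in the S. cerevisiae copy, LYS5 moves in the opposite direction, and LYS14 stays within a narrow range.

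All 7 histidine genes fell on both subgenomes, with medians of -1.998 and -2.006. HIS1 encodes ATP phosphoribosyltransferase, the first and feedback-inhibited step. ScHIS1 was at 661 and 639 FPKM with glucose, 476 and 369 with maltose and 34.4 and 49.6 with maltotriose, 15.5-fold lower (log2 difference -3.94 ± 0.20, adjusted p = 7.2e-06) on maltotriose than on glucose and 10.1-fold lower (log2 difference -3.31 ± 0.20, adjusted p = 2.1e-05) than on maltose. SeHIS1 was at 476 and 468 FPKM with glucose, 303 and 249 with maltose and 34.4 and 46.3 with maltotriose, 11.7-fold lower (log2 difference -3.53 ± 0.17, adjusted p = 6.0e-06) than on glucose and 6.84-fold lower (log2 difference -2.75 ± 0.17, adjusted p = 2.4e-05) than on maltose. Both copies thus fell from the highest glucose level of the pathway with no overlap between the sugars. HIS7, which encodes a synthase in the middle of the pathway, had a lower level and the next largest fall of the pathway. ScHIS7 was at 83.9 and 89.01 FPKM with glucose, 60.4 and 46.999 with maltose and 16.2 and 19.6 with maltotriose and 4.83-fold lower (log2 difference -2.22 ± 0.17, adjusted p = 4.0e-05) on maltotriose than on glucose. SeHIS7 was at 63.5 and 70.1 FPKM with glucose, 51.8 and 33.6 with maltose and 8.07 and 9.84 with maltotriose, 7.46-fold lower (log2 difference -2.77 ± 0.22, adjusted p = 4.7e-05) than on glucose and 4.77-fold lower (log2 difference -2.11 ± 0.22, adjusted p = 1.9e-04) than on maltose.

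HIS4 encodes an enzyme that catalyses several steps and HIS5 encodes histidinol-phosphate aminotransferase, and their copies kept close together. SeHIS4 was at 191 and 225 FPKM with glucose, 149 and 151 with maltose and 44.3 and 52.2 with maltotriose (log2 difference -2.08 ± 0.14, adjusted p = 2.3e-05 against glucose and log2 difference -1.62 ± 0.14, adjusted p = 8.3e-05 against maltose). ScHIS4 was at 192 and 216 FPKM with glucose, 158 and 187 with maltose and 50.5 and 49.4 with maltotriose (log2 difference -1.76 ± 0.13, adjusted p = 5.0e-05 against maltose). ScHIS5 was at 205 and 201 FPKM with glucose, 166 and 140.4 with maltose and 48.9 and 48.2 with maltotriose (log2 difference -2.04 ± 0.12, adjusted p = 1.6e-05 against glucose and log2 difference -1.63 ± 0.12, adjusted p = 5.3e-05 against maltose). In each the maltotriose cultures lay below all others. The remaining histidine genes HIS2, HIS3 and HIS6 fell less. ScHIS6 fell least, at 33.03 and 31.3 FPKM with glucose, 27.4 and 19.2 with maltose and 19.02 and 21.5 with maltotriose (log2 difference -0.64 ± 0.19, adjusted p = 0.018), and its call was lost in at least 1 of the fits with a culture left out.

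In the arginine pathway the genes of the route from glutamate to arginine fell and CPA1 rose. The median was -0.96 for the S. eubayanus and -1.10 for the S. cerevisiae copies. ARG1 encodes argininosuccinate synthetase and had the highest transcript level of the pathway on glucose and on maltose, while CPA1 was higher on maltotriose. SeARG1 was at 1012 and 949.98 FPKM with glucose, 695 and 478 with maltose and 170.2 and 209.8 with maltotriose, 5.16-fold lower (log2 difference -2.37 ± 0.19, adjusted p = 5.0e-05) on maltotriose than on glucose and 3.09-fold lower (log2 difference -1.60 ± 0.19, adjusted p = 3.6e-04) than on maltose. ScARG1 was at 838 and 777 FPKM with glucose, 579.9 and 423 with maltose and 192 and 256 with maltotriose and 3.601-fold lower (log2 difference -1.86 ± 0.19, adjusted p = 1.5e-04) than on glucose. ARG4 encodes argininosuccinate lyase of the final step. ScARG4 was at 693 and 616 FPKM with glucose, 489 and 379.5 with maltose and 75.2 and 102 with maltotriose, 7.39-fold lower (log2 difference -2.88 ± 0.19, adjusted p = 2.1e-05) than on glucose and 4.90-fold lower (log2 difference -2.29 ± 0.19, adjusted p = 6.9e-05) than on maltose, and SeARG4 at 372 and 335 FPKM with glucose, 295 and 234 with maltose and 83.4 and 94.3 with maltotriose (log2 difference -1.56 ± 0.15, adjusted p = 1.3e-04 against maltose). The FPKM of SeARG4 over that of ScARG4 was 0.536 and 0.543 with glucose and 1.11 and 0.925 with maltotriose, so that the copies overlapped on maltotriose only.

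ARG3 encodes ornithine carbamoyltransferase and fell furthest in its S. eubayanus copy. SeARG3 was at 527 and 477 FPKM with glucose, 323 and 153 with maltose and 34.5 and 55.05 with maltotriose, 11.2-fold lower (log2 difference -3.49 ± 0.36, adjusted p = 1.4e-04) on maltotriose than on glucose and 5.31-fold lower (log2 difference -2.32 ± 0.36, adjusted p = 0.001) than on maltose. ScARG3 was at 362 and 326 FPKM with glucose, 205 and 119 with maltose and 76.4 and 125 with maltotriose (log2 difference -1.80 ± 0.30, adjusted p = 0.001 against glucose), and its maltotriose culture 2 lay above its maltose culture 2. ARG8, which encodes acetylornithine aminotransferase, fell in both copies. ScARG8 was at 219.9 and 202 FPKM with glucose, 139 and 93.6 with maltose and 34.9 and 43.1 with maltotriose and 5.40-fold lower (log2 difference -2.41 ± 0.21, adjusted p = 6.5e-05), and SeARG8 at 236 and 216 FPKM with glucose, 141 and 103 with maltose and 49.9 and 62.9 with maltotriose and 4.01-fold lower (log2 difference -1.99 ± 0.19, adjusted p = 9.7e-05). ARG81, the activator and sensor gene, was at 13.5 and 13.7 FPKM with glucose, 10.7 and 8.48 with maltose and 7.02 and 7.85 with maltotriose in the S. cerevisiae copy (log2 difference -0.79 ± 0.16, adjusted p = 0.004) and at 13.3 and 12.5 FPKM with glucose, 11.1 and 7.56 with maltose and 5.79 and 6.26 with maltotriose in the S. eubayanus copy (log2 difference -0.99 ± 0.19, adjusted p = 0.003). ScARG81 was listed as a pair of gene models whose reads were summed.

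CPA1 encodes the glutamine-hydrolysing subunit of carbamoyl phosphate synthetase and rose in both copies. ScCPA1 was at 287 and 270.3 FPKM with glucose, 186 and 153 with maltose and 885 and 703 with maltotriose, 2.85-fold higher (log2 difference 1.499 ± 0.15, adjusted p = 1.4e-04) on maltotriose than on glucose and 4.70-fold higher (log2 difference 2.22 ± 0.15, adjusted p = 3.4e-05) than on maltose. SeCPA1 was at 325 and 323 FPKM with glucose, 251 and 211 with maltose and 530.3 and 452 with maltotriose (log2 difference 0.59 ± 0.13, adjusted p = 0.005 against glucose). CPA1 is known in S. cerevisiae for an upstream reading frame that represses its translation and destabilizes its mRNA when arginine is plentiful. ARG82, which encodes inositol polyphosphate multikinase and was first known as a regulator of arginine genes, rose in the S. cerevisiae copy from a low level. ScARG82 was at 2.97 and 3.70 FPKM with glucose, 4.23 and 8.27 with maltose and 21.7 and 23.8 with maltotriose, 6.81-fold higher (log2 difference 2.46 ± 0.27, adjusted p = 2.1e-04) than on glucose and 3.64-fold higher (log2 difference 1.77 ± 0.27, adjusted p = 0.001) than on maltose, while SeARG82, at 7.41 and 9.77 FPKM with glucose, 10.4 and 8.41 with maltose and 11.8 and 12.1 with maltotriose, did not pass (log2 difference 0.44 ± 0.18, adjusted p = 0.061).

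Among the branched-chain genes the leucine isozymes separated. LEU4 and LEU9 both encode alpha-isopropylmalate synthase, the first enzyme of the leucine branch. ScLEU9 was at 45.2 and 46.4 FPKM with glucose, 35.7 and 26.98 with maltose and 8.33 and 8.55 with maltotriose, 5.43-fold lower (log2 difference -2.31 ± 0.16, adjusted p = 3.0e-05) on maltotriose than on glucose and 3.71-fold lower (log2 difference -1.76 ± 0.16, adjusted p = 1.2e-04) than on maltose. SeLEU9 was at 67.4 and 65.98 FPKM with glucose, 58.5 and 51.9 with maltose and 9.47 and 9.14 with maltotriose, 7.17-fold lower (log2 difference -2.72 ± 0.13, adjusted p = 5.8e-06) than on glucose and 5.93-fold lower (log2 difference -2.45 ± 0.13, adjusted p = 1.3e-05) than on maltose. LEU4 rose meanwhile, to 258 and 262 FPKM with maltotriose from 169.6 and 164 FPKM with glucose in the S. cerevisiae copy (log2 difference 0.63 ± 0.10, adjusted p = 0.001). SeLEU4 was at 171 and 163 FPKM with glucose, 249 and 232 with maltose and 293 and 278 with maltotriose (log2 difference 0.77 ± 0.11, adjusted p = 5.7e-04). The ratio of LEU4 to LEU9 was 3.75 and 3.54 with glucose, 5.24 and 6.77 with maltose and 31.0 and 30.6 with maltotriose for the S. cerevisiae genes, and 2.53 and 2.47, 4.26 and 4.46, and 30.9 and 30.4 for the S. eubayanus genes. Both subgenomes thus came to similar ratios on maltotriose. LEU4 and LEU9 are similar in sequence, and reads that could not be told apart between them were not counted.

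LEU2 encodes beta-isopropylmalate dehydrogenase, and its S. eubayanus copy was the higher on glucose and the lower on maltotriose, the latter not with each culture left out. SeLEU2 was at 260.2 and 286 FPKM with glucose, 272 and 299 with maltose and 54.7 and 36.95 with maltotriose, 5.96-fold lower (log2 difference -2.57 ± 0.19, adjusted p = 3.4e-05) on maltotriose than on glucose and 6.23-fold lower (log2 difference -2.64 ± 0.19, adjusted p = 4.1e-05) than on maltose. ScLEU2 was at 133 and 159 FPKM with glucose, 119.6 and 150.4 with maltose and 56.8 and 53.4 with maltotriose, 2.65-fold lower (log2 difference -1.39 ± 0.16, adjusted p = 2.3e-04) than on glucose and 2.45-fold lower (log2 difference -1.27 ± 0.16, adjusted p = 4.3e-04) than on maltose. ILV5, the acetohydroxyacid reductoisomerase gene, had the highest mean over the 3 sugars of the members of each subgenome and fell on both, though ScCPA1 was above ScILV5 on maltotriose. SeILV5 was at 1957 and 1962 FPKM with glucose, 1440.4 and 1186 with maltose and 619 and 559.7 with maltotriose and 3.32-fold lower (log2 difference -1.73 ± 0.12, adjusted p = 2.6e-05) on maltotriose than on glucose, and ScILV5 at 1097 and 1139 FPKM with glucose, 843 and 619.97 with maltose and 467 and 439.9 with maltotriose and 2.47-fold lower (log2 difference -1.30 ± 0.15, adjusted p = 2.5e-04). ILV3 encodes dihydroxyacid dehydratase. SeILV3 was at 379 and 342 FPKM with glucose, 319 and 253 with maltose and 78.005 and 80.7 with maltotriose (log2 difference -2.17 ± 0.14, adjusted p = 2.1e-05 against glucose) and ScILV3 at 314 and 307 FPKM with glucose, 250.4 and 214 with maltose and 108 and 110.3 with maltotriose (log2 difference -1.501 ± 0.12, adjusted p = 4.6e-05 against glucose and log2 difference -1.08 ± 0.12, adjusted p = 2.4e-04 against maltose). All their maltotriose cultures lay below those on glucose and maltose.

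ILV6, the regulatory subunit gene of acetolactate synthase, differed between the copies. From glucose to maltotriose the mean went from 243 to 68.6 FPKM in SeILV6 and from 383 to 269 FPKM in ScILV6. The ratio of the copies changed by -1.33 log2 units. SeILV6 was at 257 and 228 FPKM with glucose, 268 and 265 with maltose and 52.98 and 84.1 with maltotriose (log2 difference -1.98 ± 0.21, adjusted p = 2.1e-04 against maltose), whereas ScILV6 was at 398 and 369 FPKM with glucose, 356 and 359 with maltose and 247 and 292 with maltotriose (log2 difference -0.51 ± 0.12, adjusted p = 0.007 against glucose) and its call was lost in at least 1 of the fits with a culture left out. The gene of the catalytic subunit, ILV2, was at 205 and 203 FPKM with glucose, 264 and 256 with maltose and 194 and 196 with maltotriose in the S. eubayanus copy (log2 difference -0.07 ± 0.10, adjusted p = 0.57) and at 156 and 151 FPKM with glucose, 189 and 170.05 with maltose and 107 and 119 with maltotriose in the S. cerevisiae copy (log2 difference -0.45 ± 0.12, adjusted p = 0.012), and the latter call was lost in the same way. LEU5, which encodes a mitochondrial carrier of coenzyme A and no enzyme of leucine synthesis, was low and rose, with SeLEU5 at 7.70 and 7.05 FPKM with glucose, 9.99 and 13.3 with maltose and 16.005 and 14.1 with maltotriose (log2 difference 0.94 ± 0.18, adjusted p = 0.003 against glucose). The activator gene LEU3 did not pass in either copy. ScLEU3 was at 13.5 and 14.4 FPKM with glucose, 12.97 and 11.4 with maltose and 13.6 and 12.7 with maltotriose (log2 difference -0.08 ± 0.14, adjusted p = 0.63) and SeLEU3 at 5.84 and 5.19 FPKM with glucose, 5.61 and 3.85 with maltose and 5.79 and 6.77 with maltotriose (log2 difference 0.16 ± 0.20, adjusted p = 0.50).

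All 5 genes of the route from aspartate to threonine fell on both subgenomes, with medians of -1.33 and -1.30. HOM3 encodes aspartate kinase, the regulated first step. ScHOM3 was at 317 and 328 FPKM with glucose, 376 and 333 with maltose and 74.7 and 94.9 with maltotriose, 3.80-fold lower (log2 difference -1.92 ± 0.14, adjusted p = 3.7e-05) on maltotriose than on glucose and 4.18-fold lower (log2 difference -2.06 ± 0.14, adjusted p = 3.7e-05) than on maltose. SeHOM3 was at 190.4 and 183 FPKM with glucose, 179 and 136 with maltose and 33.1 and 47.1 with maltotriose, 4.66-fold lower (log2 difference -2.21 ± 0.20, adjusted p = 8.6e-05) than on glucose and 3.94-fold lower (log2 difference -1.96 ± 0.20, adjusted p = 1.9e-04) than on maltose. HOM2, the aspartate semialdehyde dehydrogenase gene, had the highest mean level of the route over the 3 sugars. ScHOM2 was at 379 and 394 FPKM with glucose, 285 and 297 with maltose and 126 and 129.996 with maltotriose (log2 difference -1.58 ± 0.10, adjusted p = 2.0e-05 against glucose and log2 difference -1.18 ± 0.10, adjusted p = 8.4e-05 against maltose). SeHOM2 was at 487 and 488 FPKM with glucose, 446 and 436 with maltose and 152 and 150.3 with maltotriose (log2 difference -1.68 ± 0.10, adjusted p = 1.2e-05 against glucose and log2 difference -1.54 ± 0.10, adjusted p = 2.4e-05 against maltose). The larger part of the difference lay between maltose and maltotriose in both copies. THR1 encodes homoserine kinase. ScTHR1 was at 121 and 115 FPKM with glucose, 107 and 101 with maltose and 46.5 and 47.8 with maltotriose (log2 difference -1.30 ± 0.11, adjusted p = 7.3e-05 against glucose and log2 difference -1.13 ± 0.11, adjusted p = 1.8e-04 against maltose) and SeTHR1 at 167 and 154 FPKM with glucose, 144 and 122 with maltose and 63.1 and 62.7 with maltotriose (log2 difference -1.33 ± 0.13, adjusted p = 1.1e-04 against glucose and log2 difference -1.06 ± 0.13, adjusted p = 3.7e-04 against maltose). HOM6, whose product homoserine dehydrogenase completes the common branch, fell least in both copies, with ScHOM6 at 233 and 220.3 FPKM with glucose, 214 and 198 with maltose and 148 and 139 with maltotriose (log2 difference -0.66 ± 0.11, adjusted p = 0.001) and SeHOM6 at 338 and 341 FPKM with glucose, 303 and 275 with maltose and 195 and 174 with maltotriose (log2 difference -0.88 ± 0.11, adjusted p = 4.3e-04).

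In the tryptophan pathway 4 of 5 genes fell and TRP1 rose on each subgenome. TRP2 and TRP3 encode the components of anthranilate synthase. ScTRP2 was at 108 and 111 FPKM with glucose, 90.8 and 82.3 with maltose and 30.5 and 33.3 with maltotriose (log2 difference -1.75 ± 0.12, adjusted p = 2.9e-05 against glucose and log2 difference -1.41 ± 0.12, adjusted p = 8.9e-05 against maltose). SeTRP2 was at 139 and 138 FPKM with glucose, 122 and 121 with maltose and 90.3 and 79.3 with maltotriose (log2 difference -0.70 ± 0.12, adjusted p = 0.001 against glucose). The maltotriose cultures of ScTRP2 thus lay below those of SeTRP2, whereas the copies of TRP3 stayed close to each other. ScTRP3 was at 73.2 and 70.8 FPKM with glucose, 58.4 and 52.1 with maltose and 14.7 and 15.8 with maltotriose (log2 difference -2.17 ± 0.13, adjusted p = 1.4e-05 against glucose and log2 difference -1.79 ± 0.13, adjusted p = 4.3e-05 against maltose) and SeTRP3 at 64.9 and 65.4 FPKM with glucose, 56.5 and 49.4 with maltose and 15.3 and 15.98 with maltotriose (log2 difference -1.99 ± 0.13, adjusted p = 2.2e-05 against glucose and log2 difference -1.69 ± 0.13, adjusted p = 5.5e-05 against maltose). TRP4 encodes anthranilate phosphoribosyltransferase. ScTRP4 was at 61.8 and 59.7 FPKM with glucose, 54.4 and 40.02 with maltose and 14.4 and 14.7 with maltotriose (log2 difference -1.99 ± 0.17, adjusted p = 6.1e-05 against glucose and log2 difference -1.62 ± 0.17, adjusted p = 1.9e-04 against maltose), and SeTRP4 at 62.7 and 59.4 FPKM with glucose, 53.1 and 49.7 with maltose and 30.6 and 32.6 with maltotriose (log2 difference -0.93 ± 0.12, adjusted p = 4.8e-04). TRP5 encodes tryptophan synthase. SeTRP5 was at 123 and 122 FPKM with glucose, 99.3 and 79.1 with maltose and 37.5 and 47.8 with maltotriose (log2 difference -1.51 ± 0.17, adjusted p = 2.1e-04 against glucose and log2 difference -1.05 ± 0.17, adjusted p = 0.001 against maltose). TRP1, the phosphoribosylanthranilate isomerase gene, was at 46.2 and 41.2 FPKM with glucose, 41.2 and 41.6 with maltose and 75.1 and 85.1 with maltotriose in the S. eubayanus copy (log2 difference 0.86 ± 0.13, adjusted p = 9.6e-04 against glucose and log2 difference 0.93 ± 0.13, adjusted p = 7.9e-04 against maltose), and at 45.6 and 44.7 FPKM with glucose, 50.5 and 54.2 with maltose and 92.9 and 106 with maltotriose in the S. cerevisiae copy (log2 difference 1.12 ± 0.13, adjusted p = 2.3e-04), so that neither copy overlapped with glucose.

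Of the serine genes, SER2, SER3 and SER33 fell and SER1 did not pass on either subgenome. SER2 encodes phosphoserine phosphatase of the last step. ScSER2 was at 59.2 and 60.6 FPKM with glucose, 38.7 and 18.7 with maltose and 6.69 and 7.95 with maltotriose, 8.18-fold lower (log2 difference -2.88 ± 0.30, adjusted p = 1.7e-04) on maltotriose than on glucose and 3.93-fold lower (log2 difference -1.76 ± 0.30, adjusted p = 0.002) than on maltose. SeSER2 was at 66.7 and 68.6 FPKM with glucose, 51.6 and 36.5 with maltose and 8.45 and 7.77 with maltotriose, 8.34-fold lower (log2 difference -2.91 ± 0.18, adjusted p = 1.8e-05) than on glucose and 5.43-fold lower (log2 difference -2.29 ± 0.18, adjusted p = 6.2e-05) than on maltose. SER3 and SER33 encode isozymes of phosphoglycerate dehydrogenase and are similar enough that reads could go uncounted. ScSER33 was at 206 and 189 FPKM with glucose, 152 and 117 with maltose and 30.4 and 34.1 with maltotriose (log2 difference -2.58 ± 0.16, adjusted p = 1.7e-05 against glucose and log2 difference -2.01 ± 0.16, adjusted p = 6.0e-05 against maltose) and SeSER33 at 122 and 108 FPKM with glucose, 116 and 89.9 with maltose and 35.8 and 39.2 with maltotriose (log2 difference -1.59 ± 0.16, adjusted p = 1.3e-04 against glucose and log2 difference -1.42 ± 0.16, adjusted p = 2.7e-04 against maltose). SeSER3 was already low on maltose, at 60.2 and 63.8 FPKM with glucose, 26.6 and 19.004 with maltose and 23.1 and 17.4 with maltotriose (log2 difference -1.58 ± 0.20, adjusted p = 4.3e-04 against glucose), and ScSER3 was at 50.7 and 52.3 FPKM with glucose, 35.3 and 39.2 with maltose and 24.5 and 23.1 with maltotriose (log2 difference -1.08 ± 0.13, adjusted p = 2.8e-04 against glucose and log2 difference -0.62 ± 0.13, adjusted p = 0.004 against maltose). SER1, the phosphoserine aminotransferase gene, was at 144 and 136 FPKM with glucose, 114 and 96.1 with maltose and 136 and 155 with maltotriose in the S. eubayanus copy, with log2 difference 0.05 ± 0.14, adjusted p = 0.76 against glucose and log2 difference 0.47 ± 0.14, adjusted p = 0.020 against maltose. ScSER1 was at 142 and 136 FPKM with glucose, 117 and 82.8 with maltose and 116 and 106 with maltotriose (log2 difference -0.32 ± 0.17, adjusted p = 0.14).

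The 37 members with TGACTC before the start codon of the reference S. cerevisiae gene included 32 that fell and 2 that rose (CPA1 and LEU4) in their S. cerevisiae copy on maltotriose, with a median of -1.66. Of the 14 members without it, 10 fell and 4 rose (ARG82, LEU5, LYS5 and TRP1), with a median of -1.22. These medians are descriptions over lists of unequal size, and the difference between them was not tested.

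**Figure D4:**
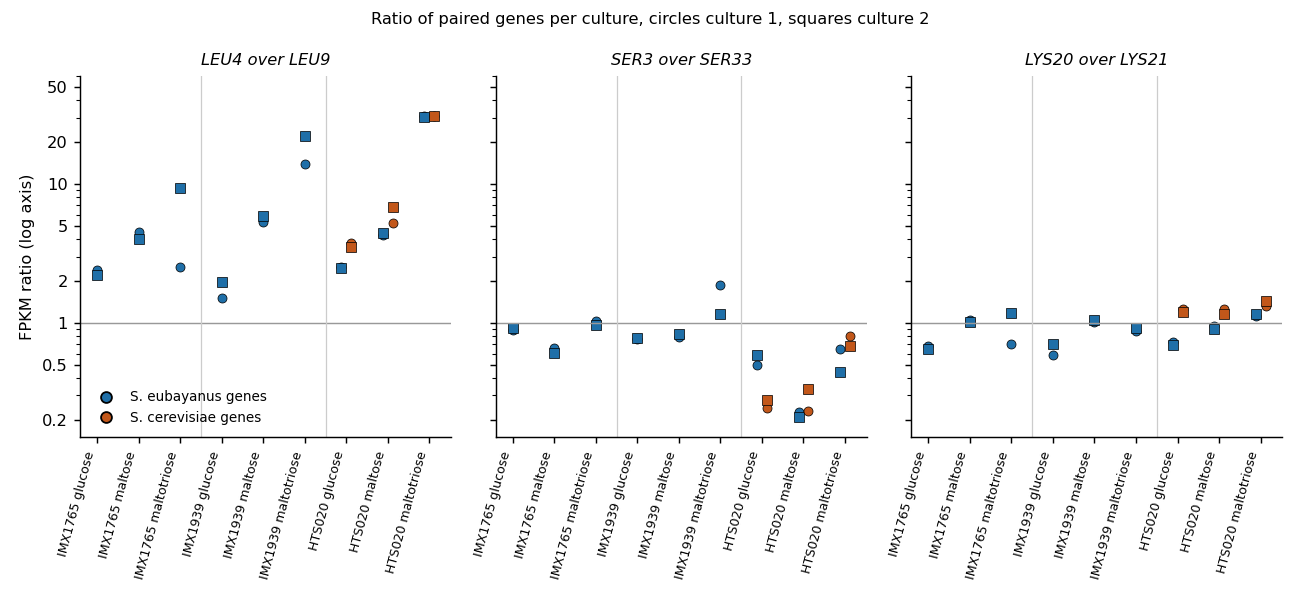
Ratio of the FPKM values of LEU4 to LEU9, SER3 to SER33 and LYS20 to LYS21 in each culture (circles culture 1, squares culture 2) of IMX1765, IMX1939 and HTS020 on 3 sugars, on a log axis. LEU4 over LEU9 reaches 30.4 to 31.0 in HTS020 on maltotriose.

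On maltose, HTS020 showed a smaller change in the same direction. Of the S. eubayanus copies 9 fell and 1 rose, and of the S. cerevisiae copies 13 fell, where 11.8% and 11.1% of all genes passed, 8.91% and 8.05% as higher and 2.87% and 3.08% as lower. The medians were -0.34 and -0.44, beside -0.01 and -0.02 for all genes. Both copies of 6 genes fell. Lysine held the largest number, with 3 S. eubayanus and 6 S. cerevisiae copies. ScLYS1 was 2.16-fold lower (log2 difference -1.12 ± 0.16, adjusted p = 0.007) on maltose than on glucose, ScLYS9 1.93-fold lower (log2 difference -0.95 ± 0.15, adjusted p = 0.011) and ScLYS12 1.79-fold lower (log2 difference -0.84 ± 0.17, adjusted p = 0.027). SeLYS2 was 1.96-fold lower (log2 difference -0.99 ± 0.23, adjusted p = 0.036), SeLYS1 1.85-fold lower (log2 difference -0.89 ± 0.18, adjusted p = 0.026) and SeLYS12 1.66-fold lower (log2 difference -0.74 ± 0.16, adjusted p = 0.029). SeSER3 was 2.72-fold lower (log2 difference -1.42 ± 0.20, adjusted p = 0.007), the greatest fall on maltose.

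The other falls on maltose were shallow. For arginine they included SeARG8 (log2 difference -0.90 ± 0.19, adjusted p = 0.027), ScARG8 (log2 difference -0.88 ± 0.21, adjusted p = 0.040), SeARG1 (log2 difference -0.76 ± 0.19, adjusted p = 0.047) and ScCPA1 (log2 difference -0.72 ± 0.15, adjusted p = 0.028), so that ScCPA1 was lower on maltose than on glucose and higher on maltotriose. For histidine they were SeHIS1 (log2 difference -0.78 ± 0.17, adjusted p = 0.032), ScHIS7 (log2 difference -0.69 ± 0.17, adjusted p = 0.045) and ScHIS3 (log2 difference -0.60 ± 0.15, adjusted p = 0.046). HIS3 encodes imidazoleglycerol-phosphate dehydratase, and its S. cerevisiae copy was at 260.5 and 237 FPKM with glucose, 179.9 and 149.8 with maltose and 71.2 and 84.9 with maltotriose. SeILV5 (log2 difference -0.58 ± 0.12, adjusted p = 0.025), ScILV5 (log2 difference -0.63 ± 0.15, adjusted p = 0.042) and ScHOM2 (log2 difference -0.41 ± 0.10, adjusted p = 0.046) fell as well, and SeLEU4 rose (log2 difference 0.52 ± 0.11, adjusted p = 0.026). The number of calls depended on single cultures. In place of 23 copies, 0 passed without glucose culture 1, 1 without glucose culture 2, 58 without maltose culture 1, 5 without maltose culture 2 and 8 without either maltotriose culture. Maltose culture 2 was below culture 1 in the share of reads on member genes and on ribosomal protein genes (14.6% against 16.9%), whose part in the result was not tested.

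The copies of each gene were compared within a library for 47 of the 51 members, those with a mean of at least 10 FPKM on both subgenomes. ARG2, ARG81, ARG82 and LEU3 were left out. On glucose the S. eubayanus copy was higher for 19 and the S. cerevisiae copy for 14, where 60.5% of all 3540 pairs passed, 30.6% and 29.9% in these directions. On maltose the numbers were 21 and 16 (60.2% of all pairs, 31.4% and 28.8%) and on maltotriose 17 and 17 (73.8%, 34.9% and 38.8%). The median log2 ratio of the members was 0.02 on glucose, 0.09 on maltose and 0.02 on maltotriose. For 10 genes the S. eubayanus copy was the higher on all 3 sugars, and for 9 the S. cerevisiae copy, which was not counted over all pairs. LYS14 had the most unequal copies on glucose, with an FPKM of the S. eubayanus copy over that of the other copy of 0.341 and 0.327 with glucose, 0.387 and 0.374 with maltose and 0.497 and 0.571 with maltotriose. At the other end, LEU1, which encodes isopropylmalate isomerase, had ratios of 2.04 and 1.84 with glucose, 2.05 and 1.83 with maltose and 1.67 and 1.497 with maltotriose. Reads that match both subgenomes were discarded by the authors, so a ratio also depends on how far the copies differ in sequence.

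The ratio changed from glucose to maltose for 4 member pairs (5.08% of all pairs, 3.05% towards the S. eubayanus copy and 2.03% away from it) and from glucose to maltotriose for 28 (60.8%, 27.7% towards and 33.1% away). On maltotriose it moved towards the S. eubayanus copy for 12 and towards the S. cerevisiae copy for 16, beside 981 and 1171 of all pairs. On maltose it moved towards SeLYS20 (log2 difference 0.62 ± 0.07, adjusted p = 0.002), SeLEU4 (log2 difference 0.38 ± 0.08, adjusted p = 0.029) and SeSER33 (log2 difference 0.40 ± 0.09, adjusted p = 0.043) and away from SeSER3 (log2 difference -0.96 ± 0.20, adjusted p = 0.033), and only the change of LYS20 held with each culture left out in turn (1 to 4 pairs passed). For 7 genes (ARG1, ARG3, CPA1, HIS6, ILV3, LEU2 and SER33) the higher copy on glucose was the lower on maltotriose. Such reversals were not counted over all pairs. With each culture left out in turn, ARG1 and ARG3 alone kept both calls. The call on glucose was lost for HIS6 and ILV3 without either glucose culture and for CPA1 without glucose culture 2. The call on maltotriose was lost for SER33 without maltotriose culture 1, and for LEU2 without maltotriose culture 2 (log2 ratio -0.05) or either glucose culture. ARG3 reversed most, with ratios of 1.45 and 1.46 with glucose and 0.451 and 0.44 with maltotriose. LEU2 had ratios of 1.95 and 1.80 with glucose and 0.962 and 0.692 with maltotriose, and CPA1, in which both copies rose, 1.13 and 1.20 with glucose and 0.599 and 0.643 with maltotriose. SER33 turned the other way, from 0.59 and 0.571 with glucose to 1.18 and 1.15 with maltotriose.

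**Figure D5:**
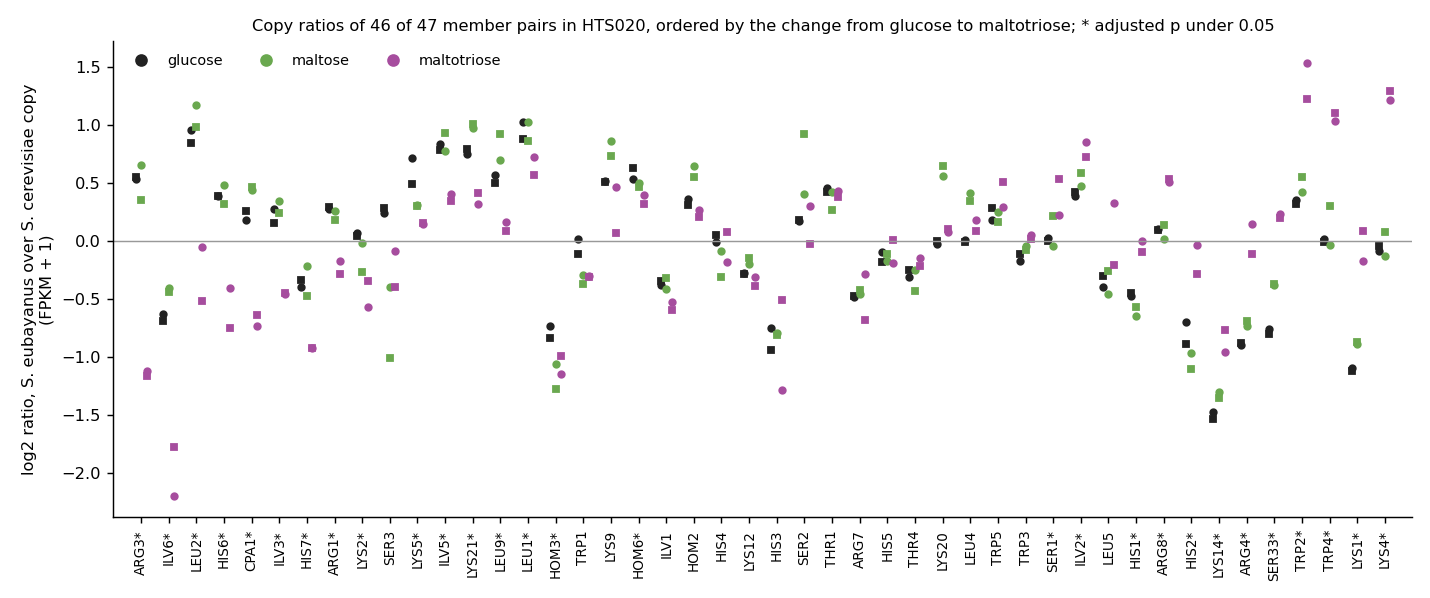
Log2 of the S. eubayanus over the S. cerevisiae FPKM for 46 of the 47 genes in each HTS020 culture (circles culture 1, squares culture 2), by sugar, ordered by the change from glucose to maltotriose, with an asterisk where that change passed the threshold. The order runs from ARG3, which moved by -1.69, to LYS4, which moved by 1.32.

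In IMX1939 on maltotriose against glucose, 27 members fell and 5 rose, where 39.8% of the 5404 genes tested passed, 16% as lower and 23.8% as higher. The median of the members was -0.63, beside 0.05 for all genes. By pathway, 5 of 5 threonine, 4 of 7 histidine, 5 of 9 lysine, 5 of 10 arginine, 3 of 5 tryptophan, 2 of 4 serine and 3 of 11 branched-chain genes fell. The pathway medians were lowest for histidine (-1.35) and lysine (-1.21). The 2 maltotriose cultures differed: culture 2 was below culture 1 in 47 of the 51 genes, with medians of -0.91 and -0.41 against the mean of glucose. Over all genes with reads in every S. eubayanus library, medians from the mean of these libraries were -0.03 (culture 2) and 0.12 (culture 1). Fewer members passed without maltotriose culture 2 or without glucose culture 1. With each culture of the fit left out in turn, 7 members passed every time, namely HIS3, HIS5, LYS1, LYS12 and SER2 as lower and LEU4 and LEU5 as higher.

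For lysine in IMX1939, LYS1 was at 870.3 and 739.9 FPKM with glucose, 794 and 552 with maltose and 343 and 204 with maltotriose, 2.95-fold lower (log2 difference -1.60 ± 0.27, adjusted p = 0.002) on maltotriose than on glucose. LYS2 was at 199 and 143 FPKM with glucose, 103 and 67.3 with maltose and 62.8 and 36.6 with maltotriose, 3.43-fold lower (log2 difference -1.79 ± 0.39, adjusted p = 0.007), and LYS9 at 744 and 534 FPKM with glucose, 670.1 and 405 with maltose and 315 and 138 with maltotriose, 2.82-fold lower (log2 difference -1.59 ± 0.39, adjusted p = 0.011). LYS21, the highest of the pathway on glucose, was at 1417 and 1291 FPKM with glucose, 1030.1 and 1071 with maltose and 1139 and 910.1 with maltotriose and did not pass (log2 difference -0.41 ± 0.17, adjusted p = 0.082), nor did the activator gene LYS14 at 27.4 and 31.7 FPKM with glucose, 33.5 and 25.8 with maltose and 32.2 and 27.4 with maltotriose (log2 difference 0.01 ± 0.20, adjusted p = 0.97). For histidine, HIS7 was at 141 and 112 FPKM with glucose, 86.1 and 49.7 with maltose and 53.1 and 16.7 with maltotriose, 3.62-fold lower (log2 difference -2.03 ± 0.59, adjusted p = 0.022), HIS1 at 1087 and 985 FPKM with glucose, 549 and 453 with maltose and 465 and 302 with maltotriose, 2.70-fold lower (log2 difference -1.46 ± 0.33, adjusted p = 0.008), and HIS3 at 195 and 199 FPKM with glucose, 117 and 111 with maltose and 80.1 and 68.1 with maltotriose, 2.66-fold lower (log2 difference -1.40 ± 0.27, adjusted p = 0.004). In each of these called genes both maltotriose cultures lay below both glucose cultures.

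For arginine in IMX1939, ARG1 was at 1614 and 1636 FPKM with glucose, 886 and 762 with maltose and 921 and 547 with maltotriose, 2.21-fold lower (log2 difference -1.19 ± 0.30, adjusted p = 0.012) on maltotriose than on glucose, and ARG3 at 807 and 1041 FPKM with glucose, 512 and 361 with maltose and 497 and 178 with maltotriose, 2.74-fold lower (log2 difference -1.62 ± 0.50, adjusted p = 0.030). CPA1, in contrast to its copies in the hybrid, fell, and was at 485 and 492 FPKM with glucose, 402 and 375 with maltose and 369 and 322 with maltotriose (log2 difference -0.50 ± 0.13, adjusted p = 0.014). ARG82 rose, at 14.8 and 21.3 FPKM with glucose, 25.4 and 25.4 with maltose and 49.6 and 91.7 with maltotriose (log2 difference 1.87 ± 0.40, adjusted p = 0.007), and ARG81 did not pass, at 20.9 and 18.3 FPKM with glucose, 19.01 and 14.8 with maltose and 17.9 and 14.3 with maltotriose (log2 difference -0.27 ± 0.20, adjusted p = 0.31). In the leucine branch LEU4 was at 197 and 223 FPKM with glucose, 478 and 421 with maltose and 863 and 735 with maltotriose, 3.80-fold higher (log2 difference 1.92 ± 0.22, adjusted p = 3.9e-04), and LEU9 at 130.04 and 114 FPKM with glucose, 89.3 and 71.8 with maltose and 61.7 and 33.1 with maltotriose, 2.58-fold lower (log2 difference -1.41 ± 0.35, adjusted p = 0.012). Their ratio was 1.52 and 1.96 with glucose, 5.35 and 5.86 with maltose and 13.99 and 22.2 with maltotriose. LEU5 was at 13.9 and 18.7 FPKM with glucose, 33.1 and 35.5 with maltose and 42.3 and 51.9 with maltotriose, 2.89-fold higher (log2 difference 1.48 ± 0.19, adjusted p = 5.9e-04). ILV5 was at 3356 and 2858 FPKM with glucose, 3779 and 2351 with maltose and 2726 and 1151 with maltotriose and did not pass (log2 difference -0.81 ± 0.41, adjusted p = 0.14), nor did LEU3 at 10.6 and 7.24 FPKM with glucose, 11.5 and 8.89 with maltose and 9.67 and 6.24 with maltotriose (log2 difference -0.15 ± 0.25, adjusted p = 0.66).

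Of the other genes of IMX1939, SER2 was at 176 and 149 FPKM with glucose, 102 and 69.4 with maltose and 56.5 and 29.95 with maltotriose, 3.77-fold lower (log2 difference -1.95 ± 0.35, adjusted p = 0.003) on maltotriose than on glucose, and SER33 at 271 and 195 FPKM with glucose, 252 and 169.98 with maltose and 118 and 78.8 with maltotriose, 2.37-fold lower (log2 difference -1.25 ± 0.26, adjusted p = 0.006). SER1 had the highest level of that pathway and did not pass, at 336 and 268 FPKM with glucose, 246 and 239 with maltose and 342 and 279 with maltotriose (log2 difference 0.04 ± 0.17, adjusted p = 0.85). In the threonine route HOM3 was at 401 and 397 FPKM with glucose, 231 and 172 with maltose and 205 and 128 with maltotriose (log2 difference -1.30 ± 0.31, adjusted p = 0.010), THR4, the threonine synthase gene, at 252 and 219.9 FPKM with glucose, 179 and 155 with maltose and 136 and 92.4 with maltotriose (log2 difference -1.06 ± 0.25, adjusted p = 0.010), THR1 at 218 and 214 FPKM with glucose, 181 and 166 with maltose and 143 and 101 with maltotriose (log2 difference -0.84 ± 0.18, adjusted p = 0.007) and HOM6 at 548 and 515 FPKM with glucose, 442 and 388 with maltose and 433 and 325 with maltotriose (log2 difference -0.50 ± 0.18, adjusted p = 0.048). The tryptophan gene TRP3 was at 90.5 and 90.6 FPKM with glucose, 77.8 and 64.001 with maltose and 56.6 and 45.8 with maltotriose (log2 difference -0.82 ± 0.21, adjusted p = 0.015), TRP5 at 188 and 195 FPKM with glucose, 143 and 121 with maltose and 123 and 101 with maltotriose (log2 difference -0.77 ± 0.21, adjusted p = 0.017) and TRP4 at 88.6 and 89.9 FPKM with glucose, 72.2 and 65.2 with maltose and 67.2 and 61.3 with maltotriose (log2 difference -0.47 ± 0.15, adjusted p = 0.037).

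On maltose, IMX1939 showed 2 lower members, ARG1 (log2 difference -0.98 ± 0.30, adjusted p = 0.04997) and ARG8 (395 and 406 FPKM with glucose and 279 and 232 with maltose, log2 difference -0.65 ± 0.19, adjusted p = 0.048), and 2 higher, LEU4 (log2 difference 1.09 ± 0.22, adjusted p = 0.007) and LEU5 (log2 difference 1.04 ± 0.19, adjusted p = 0.004), where 16.2% of all genes passed, 13.8% as higher and 2.35% as lower. The median of the members was -0.33, beside 0.10 for all genes, and rescaling the libraries by their median ratio raised the number of members from 4 to 14. The number was 15 without either maltotriose culture of IMX1765, 5 without either maltotriose culture of IMX1939, and 1 or 2 without any one of the other 10 cultures. Between maltotriose and maltose LYS1 (log2 difference -1.32 ± 0.27, adjusted p = 0.045) and LYS12 (784 and 554 FPKM with glucose, 711 and 539 with maltose and 293 and 185 with maltotriose, log2 difference -1.41 ± 0.26, adjusted p = 0.032) were lower, where 1.48% of all genes passed, 0.444% as higher and 1.04% as lower. Both lie on chromosome 9, whose genes had a median of 0.59 on maltose against glucose and of -0.59 on maltotriose against maltose in this strain, while the other chromosomes had medians between 0.01 and 0.21 and between -0.23 and 0.02. After the median of the chromosome was subtracted, LYS1 was at -0.73 and LYS12 at -0.81 and neither passed (adjusted p = 0.20 and 0.18), and 8 members passed on maltose against glucose. On maltotriose against glucose the median of chromosome 9 was 0.03 and 32 members passed after subtraction, though not ILV2 (adjusted p = 0.087). Between maltotriose and maltose 11 members passed without either maltotriose culture of IMX1765, 4 without maltotriose culture 1 of IMX1939, 1 without either glucose culture of IMX1939 and 0 without any one of the others.

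IMX1765 gave few calls. On maltose and on maltotriose against glucose LEU5 alone passed, with 14.4 and 12.6 FPKM with glucose, 25.7 and 22.4 with maltose and 29.2 and 35.8 with maltotriose (log2 difference 0.79 ± 0.19, adjusted p = 0.027 on maltose and log2 difference 1.21 ± 0.19, adjusted p = 0.009 on maltotriose), where 9.34% and 6.18% of all genes passed, 7.4% and 4.59% as higher and 1.94% and 1.59% as lower. The medians of the members were -0.23 and -0.28, beside -0.05 and -0.04 for all genes, and 42 of the 51 had a log2 difference below 0 in each comparison. On maltotriose, culture 2 was below both glucose cultures in 43 members and culture 1, the library with few reads, in 22. The share of all genes was counted neither for this nor for the refits that follow. Over all genes with reads in every S. eubayanus library, medians from the mean of these libraries were -0.06 (culture 2) and 0.02 (culture 1). They were 0.01 and -0.02 for the glucose cultures. Without culture 1, 18 members passed, without culture 2, 3 passed, and without either glucose culture of IMX1765, none did. On maltose 8 passed without either maltotriose culture, and 0 without any one of the 6 other cultures of IMX1765 and CDFM21L.1. ARG1, the highest arginine gene, was at 1777 and 1737 FPKM with glucose, 1280.2 and 1153 with maltose and 1467 and 785 with maltotriose (log2 difference -0.71 ± 0.30, adjusted p = 0.18), HIS1 at 699.8 and 654 FPKM with glucose, 457 and 419 with maltose and 698 and 314 with maltotriose (log2 difference -0.53 ± 0.33, adjusted p = 0.34), and ILV5 at 2951 and 2809 FPKM with glucose, 2559 and 2194 with maltose and 2861 and 1563 with maltotriose (log2 difference -0.44 ± 0.41, adjusted p = 0.51). LEU4 was at 254 and 241 FPKM with glucose, 354 and 364 with maltose and 271 and 461 with maltotriose (log2 difference 0.51 ± 0.22, adjusted p = 0.19) and LEU9 at 107 and 108 FPKM with glucose, 77.8 and 90.05 with maltose and 107 and 49.6 with maltotriose (log2 difference -0.55 ± 0.35, adjusted p = 0.35), and their ratio was 2.38 and 2.22 with glucose, 4.55 and 4.05 with maltose and 2.53 and 9.30 with maltotriose. No member passed between maltotriose and maltose by limma or by limma voom on the reads (0% of all genes, 1 member at an unadjusted p under 0.05), and 1 passed without maltotriose culture 2.

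With all 14 S. eubayanus libraries in the fit, no member passed between the S. eubayanus strains. IMX1765 against CDFM21L.1 on glucose gave 0 members by limma on FPKM and 0 by limma voom (2 at an unadjusted p under 0.05, 0.037% of all genes passed), although 15 passed when only these 4 libraries were fitted. IMX1939 against IMX1765 gave 0 by both on glucose (8 unadjusted, 1.3% of all genes, 0.167% as higher and 1.13% as lower), maltose (4 unadjusted, 0% of all genes) and maltotriose (15 unadjusted, 0% of all genes). On glucose, 8 of the 51 members had a lower mean in IMX1939 than in IMX1765, which was not counted over all genes. The share of reads on members was 2.80% and 2.57% in IMX1939 and 2.29% and 2.19% in IMX1765. The falls in IMX1939 were measured against this higher glucose level. The difference of the response to maltotriose between these strains gave 0 by both (11 unadjusted, 0.0185% of all genes), and that to maltose 0 (0 unadjusted, 0% of all genes), so that the larger number of calls in IMX1939 is not shown to differ from IMX1765. Without maltotriose culture 2 of IMX1765, which leaves the library with few reads, some members passed between the strains on maltotriose and for the response. Without either maltotriose culture of IMX1765, some passed on glucose. The share of all genes that passed was not counted in these refits or in the fit of 4 libraries. Whole chromosomes differed in level between the strains. In IMX1939 against IMX1765 the medians of chromosomes 9 and 15 were -0.40 and -0.36 on glucose, with the others between -0.001 and 0.07. They were 0.31 and -0.21 on maltose, with the others between 0.10 and 0.29. On maltotriose they were -0.22 and -0.27, with the others between 0.05 and 0.24. In IMX1765 against CDFM21L.1 on glucose the medians of chromosomes 4, 9 and 15 were 0.30, 0.40 and 0.33, with the others between -0.09 and 0.02. HIS5, for example, was at 199 and 209 FPKM with glucose in CDFM21L.1 and 250.5 and 268 FPKM with glucose in IMX1765, and TRP1 at 67.9 and 72.1 FPKM with glucose and 91.1 and 98.8 FPKM with glucose. Both IMX1765 cultures also lay above both CDFM21L.1 cultures for HIS6, LYS12 and SER33 (chromosome 9) and for ARG1, ARG4 and THR1 (chromosome 15). Other members on these chromosomes did not follow, such as LYS1 on chromosome 9, at 607 and 664 FPKM with glucose in CDFM21L.1 and 688 and 574 FPKM with glucose in IMX1765, and ARG8 on chromosome 15, at 315 and 324 FPKM with glucose and 329.5 and 313 FPKM with glucose, where the cultures of the strains overlapped. HIS7, LYS2, LYS20 and LYS21 on chromosome 4 overlapped as well. Over all chromosomes, 36 of the 51 members had a lower mean in IMX1765 than in CDFM21L.1. HIS1 on chromosome 5 was at 828 and 933 FPKM in CDFM21L.1 and 699.8 and 654 FPKM in IMX1765. ARG3 on chromosome 10 was at 795 and 758 FPKM in CDFM21L.1 and 643 and 569.6 FPKM in IMX1765. The share of all genes with a lower mean was not counted.

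Beyond the named pathways, 32 other genes of amino acid metabolism (aromatic amino acids, aspartate and asparagine, proline, glycine, transaminases, an ornithine carrier, breakdown and general amino acid control) showed 5 higher and 23 lower S. eubayanus copies and 8 higher and 19 lower S. cerevisiae copies in HTS020 on maltotriose, with medians of -1.08 and -1.01, and 0 higher and 12 lower genes in IMX1939. Of all genes 72.4%, 69.7% and 39.8% passed in these comparisons, 41.2%, 38.3% and 16% as lower. GCN4, the activator gene of general amino acid control, rose in transcript level in the hybrid, from a mean of 847 to 1997 FPKM in the S. cerevisiae copy (log2 difference 1.23 ± 0.13, adjusted p = 1.7e-04) and from 799 to 1593 FPKM in the S. eubayanus copy (log2 difference 0.98 ± 0.14, adjusted p = 7.8e-04). In IMX1939 its mean was 1564 FPKM on glucose and 1769 on maltotriose and did not pass (log2 difference 0.18 ± 0.17, adjusted p = 0.44). Gcn4 is regulated mainly in its translation, which was not measured. BAT1, the mitochondrial branched-chain aminotransferase gene, fell in its S. eubayanus copy from a mean of 309 to 45.6 FPKM (log2 difference -2.74 ± 0.12, adjusted p = 4.0e-06). CHA1, whose product breaks down serine and threonine, fell from 74.8 to 5.75 FPKM (ScCHA1, log2 difference -3.57 ± 0.31, adjusted p = 6.6e-05) and from 67.3 to 2.60 FPKM (SeCHA1, log2 difference -4.26 ± 0.24, adjusted p = 1.2e-05). ARO9, an aromatic aminotransferase gene known for its role in breakdown, rose from 0.762 to 32.7 FPKM (ScARO9, log2 difference 4.25 ± 0.24, adjusted p = 1.2e-05) and from 0.690 to 27.7 FPKM (SeARO9, log2 difference 4.07 ± 0.20, adjusted p = 6.5e-06). The genes of ribosomal proteins fell along with the members, 113 of 122 on the S. eubayanus and 119 of 124 on the S. cerevisiae subgenome of HTS020 (medians -0.97 and -0.94) and 119 of 122 in IMX1939 (median -1.32) on maltotriose.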

How the data were processed

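PolyA RNA of 20 shake-flask cultures (10 groups of 2) was sequenced by the authors. Per the labels' processing notes and the methods of the study, reads were aligned with STAR 2.5.3a to genome assemblies of the strains, ambiguously mapped reads were removed, and reads were counted per gene. The methods name htseq-count and the notes featureCounts of Subread 1.6.3, so the counting tool is uncertain. The authors deposited FPKM values made with edgeR. The FPKM values and gene lengths gave back reads (99.9% to 100% of the values of a library were whole within 0.01), which served for depth, read shares and 1 alternative. Strand use in counting is not given in the sources used here, so overlapping and antisense genes are uncertain.

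Values were tested as log2(FPKM + 1) with limma 3.58.1 (R 4.3.3; eBayes with trend) for genes averaging at least 1 FPKM, with the 14 S. eubayanus libraries in 1 fit and the 6 hybrid libraries in another, and Benjamini-Hochberg adjustment over all genes of the fit. Log2 differences understate changes of low genes, while folds are ratios of mean FPKM. Copies were compared as log2((SeFPKM + 1)/(ScFPKM + 1)) within a library for pairs with a mean of at least 10 FPKM each. An error after ± is the standard error of the fit. Named with all values were members past the threshold without overlap of cultures and among the 3 largest changes of their pathway, the most abundant member of each pathway, and ARG81, ARG82, LEU3 and LYS14. The genes, lists and tests were chosen with earlier results of these data known. HIS6, ILV2, LEU1 and other values given beyond this rule were chosen after they were seen. The values of 1 member, which is kept in all counts, are not reported here. The scripts were tested on simulated data with known changes, which checks the code and not the spread between the cultures used here.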

Additional observations from a re-analysis of the deposited data

Results flagged for a closer look

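For 7 genes the copies in HTS020 differed by at least 1 log2 unit in their response to maltotriose against glucose, as tested on the ratio of the copies within each library (limma, adjusted over 3540 pairs). At the threshold alone, 28 of the 47 member pairs changed, where 60.8% of all pairs did. The share of all pairs at 1 log2 unit was not counted. A negative value means that the S. eubayanus copy fell more. The difference was -1.69 for ARG3 (log2 difference -1.69 ± 0.11, adjusted p = 6.1e-06), -1.33 for ILV6 (log2 difference -1.33 ± 0.12, adjusted p = 4.4e-05) and -1.19 for LEU2 (log2 difference -1.19 ± 0.15, adjusted p = 2.3e-04). It was 1.07 for LYS1 (log2 difference 1.07 ± 0.10, adjusted p = 5.7e-05), 1.32 for LYS4 (log2 difference 1.32 ± 0.11, adjusted p = 2.1e-05), 1.04 for TRP2 (log2 difference 1.04 ± 0.12, adjusted p = 1.5e-04) and 1.06 for TRP4 (log2 difference 1.06 ± 0.14, adjusted p = 2.7e-04). The ratios behind the extremes were 0.646 and 0.618 with glucose, 0.752 and 0.737 with maltose and 0.215 and 0.288 with maltotriose for ILV6 and 0.944 and 0.971 with glucose, 0.916 and 1.05 with maltose and 2.39 and 2.52 with maltotriose for LYS4. All 7 passed with each culture left out in turn, and on maltose no pair reached 1 log2 unit.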

How the results depend on the processing

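Among the 379 log2 differences of members that passed over the 20 comparisons, 0 changed direction under any setting. They were chosen because they passed, and the settings reuse the same cultures, so a change of direction was unlikely from the start. Some of the 379 no longer passed with a culture left out. Under the other settings, 321 of 3936 values no longer met the criteria. Of these, 82 and 117 fell short only of 1 log2 unit, where a difference or copy ratio of that size was required. The share of all genes that passed was not counted under these settings. The numbers of members that passed in HTS020 on maltotriose (94 against glucose, 86 against maltose) stayed within 1.5 times under all settings run. With a culture left out they were 88 to 98 and 79 to 89, and in HTS020 on maltose 0 to 58 in place of 23. In IMX1939 they were 7 to 36 in place of 32 (maltotriose), 1 to 15 in place of 4 (maltose) and 0 to 11 in place of 2 (maltotriose against maltose). In IMX1765 they were 0 to 8 (maltose), 0 to 18 (maltotriose) and 0 to 1 (maltotriose against maltose), and between IMX1939 and IMX1765 0 to 3 on glucose, 0 to 23 on maltotriose and 0 to 18 for the response to maltotriose. Copy pairs numbered 26 to 34 on glucose, 31 to 40 on maltose and 30 to 34 on maltotriose, and their changes 1 to 4 on maltose and 21 to 30 on maltotriose.

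Rescaling by the median ratio gave 14 members for IMX1939 on maltose, and added 0.16 to each log2 difference of HTS020 on maltotriose and -0.12 to each of IMX1939 on maltose. Quantile normalization gave 3 for IMX1765 on maltose, 3 on maltotriose, 17 for IMX1939 on maltose and 37 for HTS020 on maltose. Without the trend, 2 passed for IMX1939 on maltose, 1 for maltotriose against maltose, 14 for HTS020 on maltose and 1 copy pair changed on maltose. Limma voom on the reads gave 2 and 4 for IMX1765 on maltose and maltotriose, 9 for IMX1939 on maltose and 7 for maltotriose against maltose, and 96 for HTS020 on maltotriose. With a log2 difference of at least 1 required, 0 passed for IMX1765 on maltose, 2 and 21 for IMX1939 on maltose and maltotriose, 2 for HTS020 on maltose, 2, 4 and 6 copy pairs on glucose, maltose and maltotriose, and 0 and 7 changes of pairs. With only the compared groups in the fit, 20 and 0 passed for IMX1765 on maltose and maltotriose, 7, 17 and 0 for IMX1939 on maltose, maltotriose and maltotriose against maltose, 15 for IMX1765 against CDFM21L.1 and 10 for HTS020 on maltose. Subtracting the median of each chromosome, chosen after seeing the data for comparisons within a strain, gave 8 and 0 for IMX1939 on maltose and for maltotriose against maltose. The cause of these changes was not tested.

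The labels number the cultures but state no shared batch. Deviations of same-numbered cultures correlated at 0.574 to 0.697 in IMX1939, 0.111 to 0.17 in IMX1765 and -0.136 to 0.258 in HTS020. With the replicate block, 3 members passed for IMX1765 on maltotriose, 5 for IMX1939 on maltotriose against maltose, 34 on maltotriose, 19 for HTS020 on maltose and 94 on maltotriose. With crossed numbers, chosen after seeing the data, HTS020 gave 30, 94 and 85. With 2 cultures per group, and 318922 reads in 1 IMX1765 library, an absent call is no sign of equal levels.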
